A study of Rattus norvegicus with 6 samples.

Results

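The genes described here encode the proteins of the cytosolic ribosome, measured in whole pancreas of rats fed an ethanol diet and of rats fed a control diet. They were chosen by symbol: a gene belongs to the group if its platform symbol begins with Rpl or Rps and a number, or with Rplp, and is not a ribosomal S6 kinase. This gave 43 genes, 30 of the large and 13 of the small subunit, of 10411 genes that had a probe set annotated to 1 symbol. The array held 47 probe sets for the 43 genes, and each gene was read on the one with the highest mean over all arrays. Another 34 probe sets carry a ribosomal protein symbol together with symbols of gene copies or pseudogenes. No gene is named from these, but their values are given as a group.

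The study asked how chronic ethanol consumption affects the pancreas. It compared 3 rats on an ethanol diet with 3 rats on a control diet, each rat giving 1 array of total pancreatic RNA. The labels give no strain, sex, age or length of feeding. Since the tissue is whole pancreas, fewer cells of a type and less RNA per cell cannot be told apart. Acinar cells make the digestive enzymes, and all 7 acinar markers measured were above the intensity filter. Together they read from 1001665 to 1040262 in ethanol rats and from 988753 to 1005313 in control rats. Among them Cpa1, Cel, Pnlip and Ctrb1 read close to the highest values of the arrays. These highest values were 164855 to 171742 in ethanol rats and 163449 to 166964 in control rats. Whether signals this high still follow the amount of RNA was not tested, so the sums may not show a difference in acinar content.

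A ribosome is a large and a small subunit, each a folded RNA core with many proteins on it. The small subunit reads the mRNA and the large subunit joins the amino acids. Pancreatic acinar cells are known for their very high rate of protein synthesis and are packed with ribosomes bound to the endoplasmic reticulum. Ribosomal protein mRNAs are abundant and are usually made in balanced amounts. Most begin with a terminal oligopyrimidine (TOP) tract, a C followed by a run of C and T at the transcript's first bases. The kinase complex mTORC1 controls their translation through this tract, by way of proteins such as Larp1.

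The start sites of a few members are shown because the tract is the sequence feature that the family is known for. Each window runs from 10 bases before the annotated start through 20 bases from it, 5′ to 3′ on the coding strand, from RefSeq on the GRCr8 rat assembly. Capitals mark a run of C followed by 4 or more letters that are each C or T, where that C lies within 5 bases of the annotated start. Any C or T just before that C stays in lower case, so a longer run can be marked in part.
Rps23 (chr2:23814507-23814536, + strand): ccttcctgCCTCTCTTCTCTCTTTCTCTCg
Rpl37a (chr9:81748081-81748110, + strand): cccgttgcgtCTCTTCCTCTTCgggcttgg
Rplp0 (chr12:46718371-46718400, - strand): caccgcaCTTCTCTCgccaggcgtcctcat
Rpl12 (chr3:36661930-36661959, + strand): aacatccgtCTTTTCggctttcggttcgga
Rpl39 (chrX:121195877-121195906, - strand): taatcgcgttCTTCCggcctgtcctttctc

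The next windows are those of 6 members whose values are given in detail further on, and none of them had such a run within 5 bases of the annotated start.
Rps15a (chr1:181860265-181860294, - strand): ttttctttccacagtcaccatggtgcgaat
Rps3 (chr1:163195757-163195786, - strand): ttcagcggcgcgcggcagcaagatggcggt
Rps6 (chr5:106420521-106420550, - strand): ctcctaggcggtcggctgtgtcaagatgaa
Rpl13a (chr1:104748894-104748923, - strand): tcctttcctaggcggctgccgaagatggcg
Rps27l (chr8:76443648-76443677, + strand): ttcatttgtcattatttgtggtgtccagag
Rpl7l1 (chr9:21695708-21695737, + strand): cagatgcattgtgggaagcctttaactcgt

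RefSeq held a start site for 38 of the 43 genes, and 20 of the 38 (52.6%) had the run within 5 bases, against 17.0% of all 33469 annotated rat starts. Counted from its first capital, the run was 5 to 21 bases long, and the longest was in Rps23. It stood in 13 of 26 large subunit genes and in 7 of 12 small subunit genes. Allowing 10 bases gave 27 of 38 members (71.1%) and 28.9% of all starts. With that allowance Rps15a, Rpl13a, Rps6 and Rpl7l1 held a run, while Rps3 and Rps27l did not. Counted from the annotated start, these runs began at -6 in Rps15a, -9 in Rpl13a, -10 in Rps6 and 8 in Rpl7l1. None of them covered the annotated first base, so they are not shown to be TOP tracts. Only the coding strand was searched for the run. Within the 300 bases from 250 before the start to 50 after it, on either strand, 9 of 38 members (23.7%) held CCGGAAG, the core bound by ETS factors, against 8.75% of all windows. The letters AAGATGG, which lie in the YY1 motif and contain a start codon, stood in 8 of 38 (21.1%) against 7.01%, and TATAAA in 6 of 38 (15.8%) against 14.2%. These are matches of letters at annotated starts, which can be some bases off. Among tested members, the median log2 change between diets (ethanol minus control) was -0.11 over 19 with the run within 5 bases and -0.13 over 17 without it.

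Between diets, ribosomal protein genes differed little. On the log2(intensity + 50) scale, the median log2 change (ethanol minus control) over all 43 genes was -0.11, with 34 genes below 0 and 9 above. As a ratio, the median is a change of -7.03% in ethanol rats. Of the 43 genes, 40 were bright enough to be tested, and 0 of these 40 passed limma at a Benjamini-Hochberg adjusted p under 0.05, where 0.41% of all 9520 tested probe sets passed. Before adjustment, limma gave a p under 0.05 to 3 of the 40. Of these, 2 were lower in ethanol rats, where 10.3% of all tested probe sets were, and 1 was higher, where 8.08% were. Both shares are below those of the array as a whole.

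The shift of the family was small and depended on how the arrays were scaled. Over all 9520 tested probe sets the median log2 change was 0.00020, and 50% of them were below 0, against 33 of the 40 tested members. When the deposited values were quantile-normalized, the median of the 43 genes was -0.016 and 24 of the 43 were below 0. Why the shift depended on the scaling was not tested. The 2380 brightest tested probe sets include ribosomal ones. Their median deviation from each probe set's mean, as deposited, was -0.025, -0.0033 and -0.012 in ethanol rats 1, 2 and 3. In control rats 1, 2 and 3 it was 0.019, 0.016 and 0.011. Of the 94 tested probe sets as bright as the median tested member or brighter, 31 were ribosomal (33.0%). The 63 others among the 94 had a median log2 change of 0.0083 as deposited and 0.016 after quantile normalization.

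**Figure D1:**
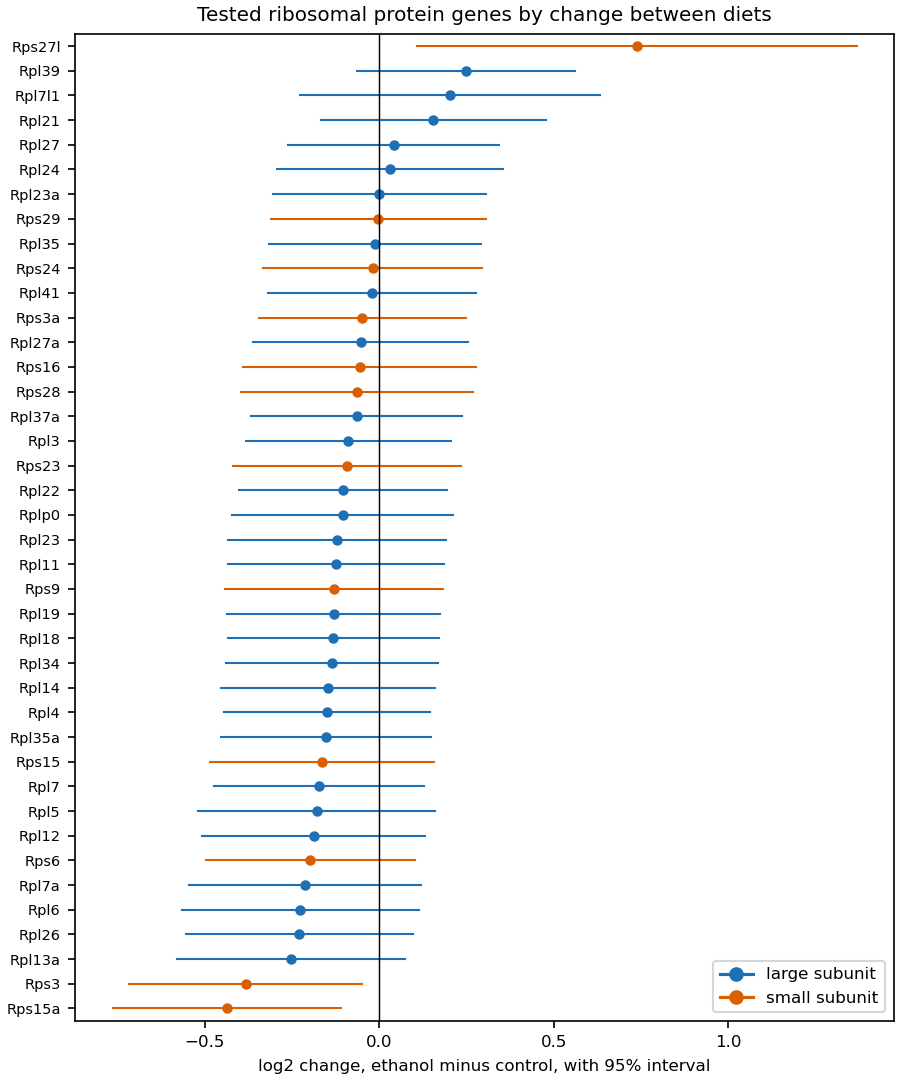
Log2 change (ethanol minus control) of the 40 tested ribosomal protein genes, 1 row a gene, sorted from the most positive at the top. Points are limma estimates and lines their 95% intervals, and most intervals cross 0 and lie within 0.5 of it on either side.

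The plot of changes by gene shows how closely the members lay to each other. The log2 changes of the tested genes ran from -0.44 to 0.74. Of the 40, 31 were within 0.2 of 0, as were 4524 of all 9520 tested probe sets. Standard errors ran from 0.129 to 0.275 with a median of 0.136, against a median of 0.178 over all tested probe sets. For 29 of the 40 genes the 95% interval excluded a difference of 0.5 in either direction, which 2222 of the 9520 tested probe sets did. For 39 of the 40 it excluded a difference of 1. The exception was Rps27l. Such narrow values were not particular to the family. Of the 63 other tested probe sets as bright as the median tested member or brighter, 51 were within 0.2 of 0. Their median standard error was 0.135, and for 45 of the 63 the 95% interval excluded a difference of 0.5.

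The 3 rats of each diet separated on some members. On 16 of the 40 tested genes all ethanol rats read below all control rats, where this held for 14.3% of all tested probe sets. On 1, Rpl39, all ethanol rats read above, where 11.1% did. After quantile normalization these counts were 6 and 3, against 13.8% and 11.2% of tested probe sets. Over all 43 genes, the median deviation from each gene's mean was -0.072, -0.047 and -0.034 in ethanol rats 1, 2 and 3, and 0.086, 0.064 and 0.0091 in control rats 1, 2 and 3. Control rat 3 was thus the nearest to the ethanol rats. In all 9 pairings of an ethanol rat with a control rat, from 27 to 35 of the 43 genes read lower in the ethanol rat. The pairings reuse the same arrays, so they are not separate observations. They were read on the deposited values, and the share over all tested probe sets is not given here.

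**Figure D2:**
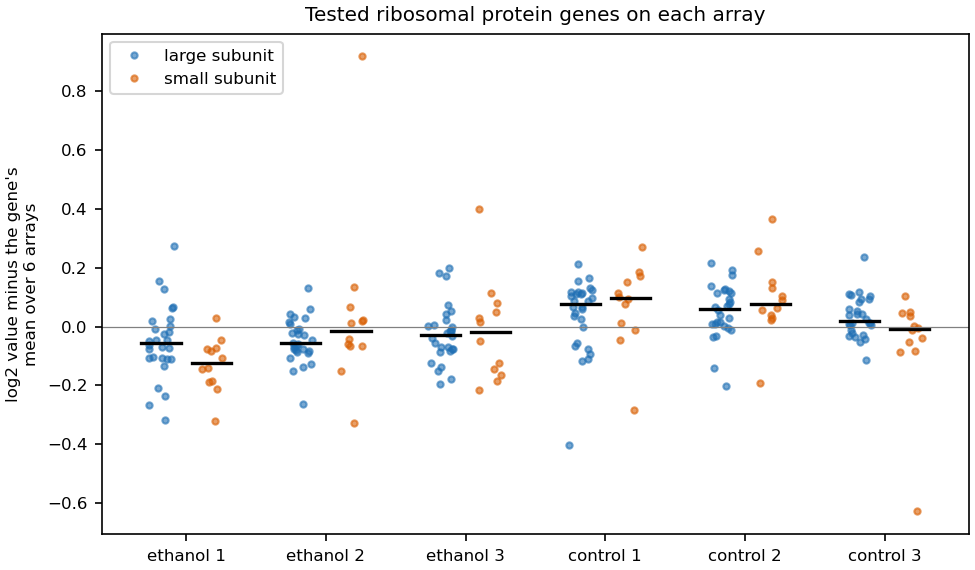
Deviation of each tested ribosomal protein gene from its own mean over the 6 arrays (log2 scale), by array, for 28 large subunit genes and 12 small subunit genes. Black bars are medians, and they lie below 0 in the ethanol rats and above 0 in control rats 1 and 2, while the small subunit median of control rat 3 is at -0.01.

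The family's summed signal was also set against the whole array. The 43 genes took 4.80%, 4.96% and 4.94% of the array's signal in ethanol rats 1, 2 and 3, and 5.31%, 5.29% and 5.08% in control rats 1, 2 and 3. The 2 groups did not overlap, and the gap between the closest rats was small. These shares are of the deposited values and are not given after quantile normalization. A share of an array's signal is no measure of total RNA.

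The medians of the large and the small subunit lay close together. The median log2 change was -0.12 over 30 large subunit genes and -0.063 over 13 small subunit genes, a difference of -0.060. Over tested genes only, the medians were -0.12 over 28 of the large and -0.078 over 12 of the small subunit. With probe sets averaged per gene, the difference of medians was -0.021. The probe sets of a subunit share their arrays, so the subunits were compared as a description only. The difference between the subunits' median deviations was 0.051, -0.068 and 0.021 in ethanol rats 1, 2 and 3, and -0.016, -0.0032 and 0.025 in control rats 1, 2 and 3. These values overlap between diets, and their means were 0.0015 ± 0.062 in ethanol rats and 0.0022 ± 0.021 in control rats (SD, n = 3). Leaving out ethanol rat 2 turned the difference of medians to 0.014, and it was -0.011 without control rat 3 and -0.0081 without ethanol rat 3. After quantile normalization the subunit medians were -0.027 for the large and 0.00019 for the small subunit.

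In the small subunit, the largest negative differences were those of Rps15a and Rps3. Rps15a, a protein that binds the RNA core of the small subunit, had intensities of 16804, 18915 and 18473 in ethanol rats, against 23912, 27066 and 22566 in control rats. The groups did not overlap. Its log2 change was -0.44 (SE 0.14, 95% interval -0.76 to -0.11, limma adjusted p = 0.170), or -26.1% as a percent change. With a variance trend in limma the adjusted p was 0.0343, and Rps15a was then the 1 ribosomal gene that passed. The share of all tested probe sets that passed with this setting is not given here, so the 1 cannot be set against it. Over all alternatives the log2 change of Rps15a ran from -0.49 to -0.36 and its limma adjusted p from 0.0343 to 0.407.

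Rps3, which sits where the mRNA enters the ribosome and also takes part in DNA repair, read 17529, 14775 and 16551 in ethanol rats, against 22401, 22190 and 19156 in control rats. The groups did not overlap here either. The log2 change was -0.38 (SE 0.15, 95% interval -0.72 to -0.05, limma adjusted p = 0.221). Over all alternatives it ran from -0.46 to -0.31, with limma adjusted p from 0.0611 to 0.451.

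Rps6, the small subunit protein phosphorylated by the S6 kinases downstream of mTORC1, read 47599, 48957 and 47067 in ethanol rats, against 57805, 54522 and 52496 in control rats. All ethanol rats were lower. Its log2 change was -0.20 (SE 0.13, limma adjusted p = 0.456), and after quantile normalization it was -0.031.

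The brightest small subunit probe sets beside Rps6 were those of Rps29 and Rps23, although brightness does not compare transcript levels between probe sets. Rps29, a zinc-binding protein of the small subunit's head, read 70596, 72432 and 80664 in ethanol rats, against 73955, 75983 and 73832 in control rats. The groups overlapped, and the log2 change was -0.0028 (95% interval -0.31 to 0.30). Rps23, which lies at the decoding centre, read 42222, 48666 and 49087 in ethanol rats, against 53367, 49434 and 46372 in control rats (log2 change -0.093 as deposited, SE 0.14, and 0.025 after quantile normalization). The remaining small subunit genes with a parent symbol, Rps15, Rps9, Rps28, Rps16, Rps3a and Rps24, had log2 changes from -0.16 to -0.019.

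Rps27l, a paralogue of Rps27 that p53 induces in human cells, went the other way. It read 1196, 2677 and 1856 in ethanol rats, against 1135, 1213 and 884 in control rats. Ethanol rats 2 and 3 were above all control rats, while ethanol rat 1 lay among them. The log2 change was 0.74 (SE 0.28, 95% interval 0.11 to 1.37, limma adjusted p = 0.211), the largest of any tested member. It ran from 0.46 to 1.03 over the alternatives, with limma adjusted p from 0.103 to 0.381. Rps27 itself was read only by a probe set of several symbols.

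**Figure D3:**
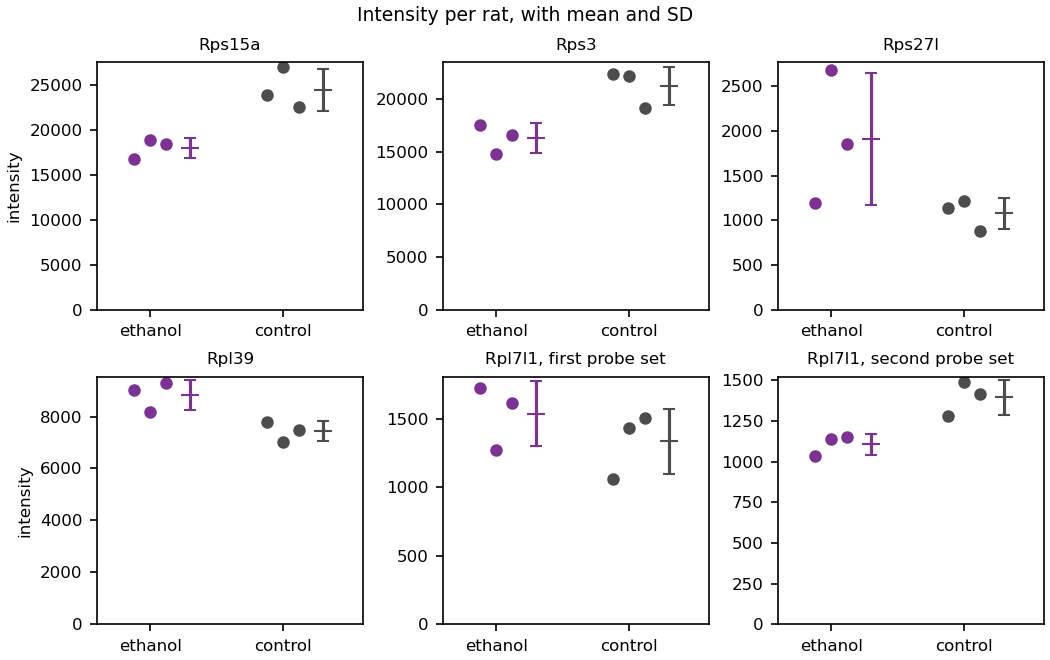
Intensity per rat (linear axes from 0) of Rps15a, Rps3, Rps27l, Rpl39 and the 2 probe sets of Rpl7l1, ethanol on the left and control on the right. Points are rats in the order 1 to 3, and dashes with bars are means ± SD (n = 3). Groups are apart for Rps15a, Rps3, Rpl39 and the second probe set of Rpl7l1.

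In the large subunit no gene reached an unadjusted limma p under 0.05 on its main probe set, and adjusted p-values ran from 0.373 to 0.999. The members at the low end were Rpl13a, Rpl26, Rpl6, Rpl7a and Rpl12. Rpl13a, which also acts in interferon-driven translational silencing in human cells, read 17175, 14813 and 16945 in ethanol rats, against 19388, 17981 and 20941 in control rats. The groups did not overlap (log2 change -0.25, SE 0.14, limma adjusted p = 0.383).

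Rpl26, a protein beside the exit tunnel, read 29357, 33466 and 35283 in ethanol rats, against 38087, 40336 and 36398 in control rats. Rpl6 read 26447, 31281 and 34215 in ethanol rats, against 35447, 35939 and 35577 in control rats. In both, ethanol rat 1 was the lowest and ethanol rat 3 came close to the control rats, and the log2 change was -0.23 (SE 0.14 for Rpl26 and 0.15 for Rpl6). For Rpl6 the SD was 3923 in ethanol rats and 255 in control rats.

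Rpl7a averaged 48247 ± 4123 in ethanol rats and 55923 ± 4799 in control rats (SD, n = 3), with overlapping groups and a log2 change of -0.21 (SE 0.15). Rpl12, part of the base of the stalk that recruits translation factors, read 28470, 27083 and 25004 in ethanol rats, against 33189, 29767 and 28871 in control rats (log2 change -0.19, SE 0.14). All ethanol rats were lower for Rpl12. Rplp0, the scaffold of the stalk, averaged 27307 ± 2292 in ethanol rats and 29321 ± 1096 in control rats (SD, n = 3), and its groups overlapped (log2 change -0.11, 95% interval -0.42 to 0.21).

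Free Rpl5 and Rpl11, not built into ribosomes, bind Mdm2 when ribosome assembly is disturbed. Rpl5 read 36223, 39567 and 44884 in ethanol rats, against 47753, 46905 and 41702 in control rats. Rpl11 read 31022, 28692 and 31064 in ethanol rats, against 34071, 34143 and 30766 in control rats. The groups overlapped for both, with log2 changes of -0.18 (SE 0.15) for Rpl5 and -0.12 (SE 0.13) for Rpl11.

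Near 0 lay Rpl41, a very short basic peptide, which averaged 57551 ± 1534 in ethanol rats and 58388 ± 1929 in control rats (SD, n = 3). Its log2 change was -0.021 (95% interval -0.32 to 0.28) as deposited and 0.14 after quantile normalization. Rpl23, which faces the small subunit, averaged 52824 ± 2453 in ethanol rats and 57544 ± 3884 in control rats (SD, n = 3), with a log2 change of -0.12 as deposited and 0.041 after quantile normalization. Rpl23a, the docking site at the tunnel exit for the signal recognition particle, had a log2 change of 0.00031 (95% interval -0.30 to 0.31). Rpl24 and Rpl27 were at log2 changes of 0.030 (SE 0.14) and 0.041 (SE 0.13). The other 10 tested large subunit genes, among them Rpl4, Rpl19 and Rpl35a, had log2 changes from -0.15 to -0.014.

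Rpl39, a small protein that lines the exit tunnel, was the tested member on which all ethanol rats read higher. It read 9027, 8192 and 9308 in ethanol rats, against 7786, 7032 and 7485 in control rats. The log2 change was 0.25 (SE 0.14, 95% interval -0.06 to 0.56, limma adjusted p = 0.373), or 18.7% more signal. It ran from 0.21 to 0.30 over the alternatives. Rpl21 averaged 17879 ± 1567 in ethanol rats and 16031 ± 830 in control rats (SD, n = 3), with overlapping groups (log2 change 0.15, SE 0.14).

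Rpl7l1, a paralogue of Rpl7 tied to assembly of the large subunit, gave no settled direction. Its first probe set read 1725, 1274 and 1615 in ethanol rats, against 1062, 1435 and 1508 in control rats (log2 change 0.20, SE 0.19). Its second read 1033, 1139 and 1149 in ethanol rats, against 1281, 1490 and 1414 in control rats (log2 change -0.32, SE 0.14, limma adjusted p = 0.269). Before adjustment this second probe set had a limma p under 0.05, as 10.3% of all tested probe sets did in that direction. The groups overlapped on the first and not on the second, and the mean of both gave -0.059.

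Rpl7 was also split between its probe sets. Its main one had a log2 change of -0.17 (SE 0.13), with 23269, 24416 and 24568 in ethanol rats, against 27723, 27938 and 25772 in control rats, and no overlap. Its second probe set read 1004, 1592 and 589 in ethanol rats, against 771, 732 and 795 in control rats (log2 change 0.34, SE 0.30). The second probe sets of Rpl14 (log2 change -1.35) and Rps24 (-0.34) lay below the intensity filter and on the same side of 0 as the main ones (-0.15 for Rpl14 and -0.019 for Rps24).

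Rpl3, which reaches towards the catalytic centre, averaged 39195 ± 903 in ethanol rats and 41695 ± 421 in control rats (SD, n = 3), with no overlap (log2 change -0.089, SE 0.13). Its paralogue Rpl3l, known from heart and skeletal muscle, read -126, -110 and -76 in ethanol rats, against -239, 16 and -138 in control rats, which is background. Rps4y2 read 112, 132 and 43 in ethanol rats, against 12, 32 and 8 in control rats. The probe set annotated to Rpl30 alone read 275, 274 and 230 in ethanol rats, against 182, 55 and 44 in control rats. These 3 genes were below the filter and were not tested, and their values lie in the range where background subtraction sets the level.

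**Figure D4:**
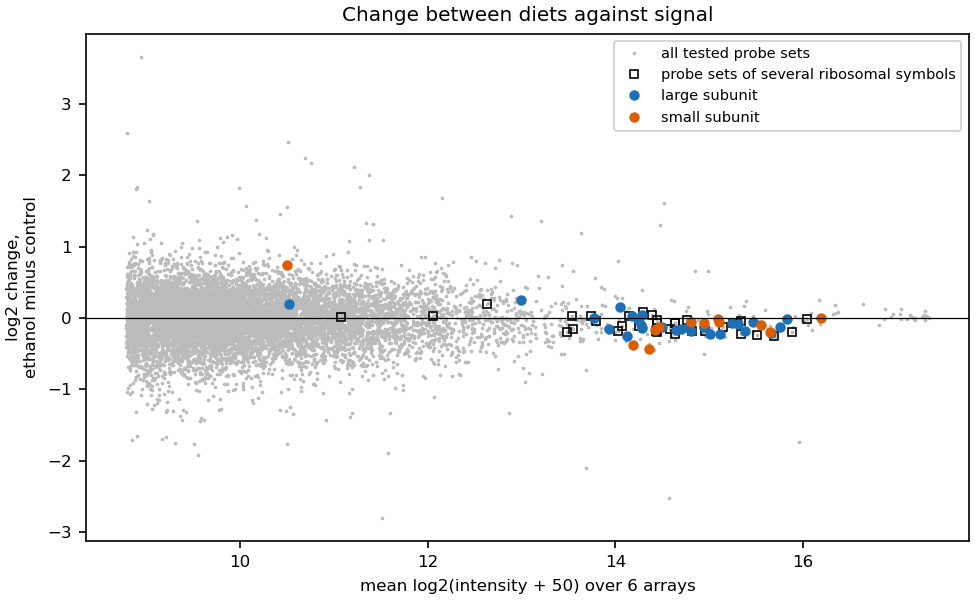
Log2 change (ethanol minus control) against mean log2(intensity + 50) for all 9520 tested probe sets (grey), with large and small subunit genes as filled points and the 34 probe sets of several ribosomal symbols as open squares. Nearly all ribosomal points lie in the bright part of the array, in a narrow band just under 0.

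The 34 probe sets of several symbols, all of them bright enough to be tested, had a median log2 change of -0.073, with 26 below 0. Their changes ran from -0.25 to 0.19 and limma passed 0 of them, with 0 at an unadjusted p under 0.05. All ethanol rats were below all control rats on 9 and above on 0, where 14.3% and 11.1% of all tested probe sets were. By subunit their medians were -0.072 over 19 of the large and -0.11 over 14 of the small subunit, so the order of the subunits was the opposite of that among the named genes. After quantile normalization the median of the 34 was -0.026. These probe sets share targets with pseudogene copies, and probe sets of named members may take up such signal as well.

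Most genes of 2 lists around the family also read lower in ethanol rats, and the difference between these lists and the family was not tested. Among 12 tested genes of other mRNAs that carry a TOP tract, all 12 were below 0, with a median log2 change of -0.23 as deposited and -0.22 after quantile normalization. None of them reached an unadjusted limma p under 0.05, and 6 had all ethanol rats below all control rats, against 14.3% over the array. Eif3h and Eif3f, subunits of the initiation factor that brings mRNA to the small subunit, had the smallest p. Eif3h read 11511, 11316 and 11463 in ethanol rats, against 13652, 13657 and 14261 in control rats (log2 change -0.28, SE 0.13, limma adjusted p = 0.300). Eif3f averaged 3902 ± 238 in ethanol rats and 4780 ± 290 in control rats (SD, n = 3; log2 change -0.29, SE 0.14). Rack1, a scaffold protein of the small subunit under another symbol, averaged 26396 ± 2595 in ethanol rats and 28852 ± 927 in control rats (SD, n = 3; log2 change -0.13, SE 0.14).

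Of 42 tested ribosome assembly factors and RNA polymerase I genes, 35 were below 0, with a median log2 change of -0.24 as deposited and -0.23 after quantile normalization. Limma passed 0 of them, while before adjustment 7 had a p under 0.05, all 7 of them lower, where 10.3% of all tested probe sets were. Rcl1, which acts in small subunit rRNA processing in yeast, read 1972, 1579 and 1579 in ethanol rats, against 2541, 2628 and 2758 in control rats. Its log2 change was -0.62 (SE 0.15, limma adjusted p = 0.105). Sbds, which frees the large subunit of its assembly factor Eif6 and is mutated in Shwachman-Diamond syndrome with pancreatic insufficiency, read 452, 493 and 83 in ethanol rats, against 972, 1022 and 1018 in control rats. Ethanol rat 3 was the lowest by far, and the log2 change was -1.67 (SE 0.47, limma adjusted p = 0.138).

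Genes that signal to ribosomal protein mRNAs lay on both sides of 0. Of 18 tested, 11 were above 0 and 7 below (median log2 change 0.13), and limma passed 0. Before adjustment 4 were higher (8.08% over all tested probe sets) and 2 lower (10.3% over all tested probe sets) with a p under 0.05. Larp1, the protein that binds TOP tracts, read 8242, 8453 and 8228 in ethanol rats, against 6375, 5759 and 5274 in control rats. All ethanol rats were higher (log2 change 0.52, SE 0.14, limma adjusted p = 0.129). Ddit4, an inhibitor of mTORC1, read 2801, 6494 and 6352 in ethanol rats, against 766, 1484 and 1138 in control rats (log2 change 2.11, SE 0.35, limma adjusted p = 0.0571).

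**Figure D5:**
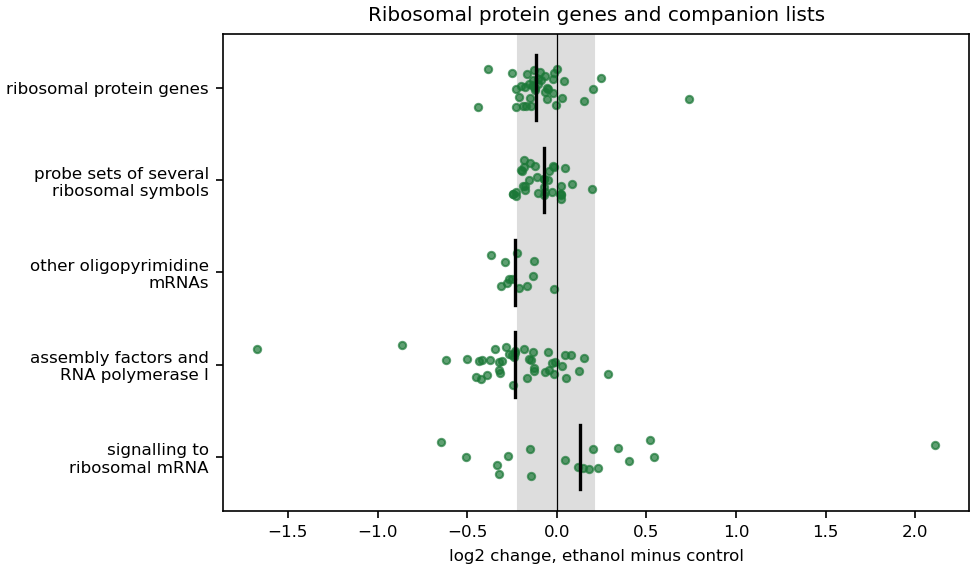
Log2 change (ethanol minus control) of tested genes, 1 point a gene, for ribosomal protein genes, probe sets of several ribosomal symbols, and 3 companion lists. Black bars are list medians and the grey band holds the middle of all tested probe sets, from -0.21 to 0.21. The medians of the TOP mRNAs and of the assembly factors lie further below 0 than that of the ribosomal proteins.

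The ranges of RNA integrity overlapped between diets, while all 4 erythroid markers had positive log2 changes. The ratio of 3′ to 5′ signal, a measure of RNA integrity, was 1.54 to 1.78 for beta-actin in ethanol rats and 1.44 to 2.01 in control rats. For GAPDH it was 1.52 to 1.87 in ethanol rats and 1.63 to 2.11 in control rats. The erythroid markers had a median log2 change of 0.61, and on 3 of the 4 all ethanol rats were above all control rats, where 11.1% of all tested probe sets were. Their summed intensities ran from 25617 to 33312 in ethanol rats and from 15433 to 22883 in control rats. Islet markers summed to 110585 to 170938 in ethanol rats and 141177 to 173011 in control rats, mostly from Ins1 and Ins2. The log2 change was -0.17 for Ins1 and -0.089 for Ins2, against 0.38 for Gcg, 0.52 for Sst and 0.38 for Ppy. The groups overlapped on each of these, and Chga was below the filter. Macrophage markers summed to 5386 to 7285 in ethanol rats and 6364 to 8181 in control rats. None of the 5 measured lymphocyte markers passed the intensity filter, nor did Krt19 among 3 measured duct markers. The part of these cells in the differences above was not tested.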

How the data were processed

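Pancreatic RNA of 6 rats was hybridised to 1 single-colour array each. The authors deposited intensities, whole numbers on a linear scale, with 940 to 955 values per array below 0 (background subtracted) and a median of 543 on each array, as read from the values. Scanner, software and normalization: not given in the sources used here. Per the labels' protocols, column-purified total RNA was labelled with biotin as cRNA.

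Of 15923 probe sets, 57 controls were left out. Values below 0 were set to 0, 50 was added and log2 taken, so changes of dim probe sets are understated. The 9520 probe sets at or above percentile 40 of the mean were tested with limma 3.58.1 (R 4.3.3, 2 groups, empirical Bayes, Benjamini-Hochberg over all of them), a fit also tested on simulated data. Tables were made with Python 3.11.15. Symbols come from the platform annotation and start sites from RefSeq (GRCr8).

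Members, gene lists and tests were chosen with earlier results of these data known. Named genes are those with an unadjusted p under 0.05, the 8 lowest and 8 highest changes, the 3 brightest of each subunit, Rplp0, paralogues with their parent gene, Rps6, Rpl5, Rpl11, and the 2 of smallest p per companion list. Further names were added with their values known. Pdk1, a pyruvate dehydrogenase kinase, was dropped from the signalling list after its value was seen. The alternatives changed 1 setting at a time: the constant (20 or 100), the scaling (quantile normalization), the filter (none, or percentile 60), the prior (variance trend), the block (replicate number), the probe sets (averaged per gene), and the arrays (1 left out).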

Additional observations from a re-analysis of the deposited data

How the results depend on the processing

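The count of 0 ribosomal protein genes passing limma held under every alternative but the variance trend, which called 1, Rps15a, at a log2 change of -0.44. The share of all tested probe sets called with the variance trend is not given here. Quantile normalization moved the median log2 change to -0.016 over all 43 genes, -0.027 over the large subunit and 0.00019 over the small subunit, and turned Rpl23 to 0.041, Rpl41 to 0.14 and Rps23 to 0.025; the cause was not tested. With arrays left out, the medians ran from -0.133 to -0.0905 over all genes, from -0.133 to -0.0937 over the large subunit, from -0.125 to -0.0333 over the small subunit and from -0.0791 to 0.0137 for large minus small. The values near 0 changed sign with single arrays left out: Rpl23a ran from -0.032 to 0.042, Rpl24 from -0.027 to 0.091, Rpl27 from -0.0037 to 0.070, Rpl41 from -0.043 to 0.0041 and Rps29 from -0.061 to 0.035. The mean of all probe sets gave 0.085 for Rpl7 and -0.059 for Rpl7l1. Of 336 values of 24 named genes under 14 alternatives, 320 kept their direction, a count partly fixed in advance. The filters, the variance trend and the replicate block cannot change a log2 change. Averaging probe sets can change it only for genes with several probe sets. The replicate block called 0, and it could not move the medians (-0.11 over all genes), since each block held 1 array of each diet. Over all tested probe sets, same-numbered arrays did not deviate together (correlations of -0.030, 0.026 and -0.14 for numbers 1, 2 and 3). Arrays of unlike number had correlations from -0.076 to 0.095. Such correlations cannot exclude that same-numbered rats were tied on some genes. Members below the filter have no test, and dim paralogues limit what can be said of them.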
